A study of Mus musculus with 5 samples.

Results

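The cells described here are marrow stromal cells that carry the transcript of the chemokine Cxcl12 at a high level, taken from the femurs of young mice with and without a first marrow ablation. A cell was taken when it had at least 500 detected genes, at least 1000 unique molecular identifiers (UMIs, each standing for 1 captured transcript), under 25% of its UMIs from mitochondrial genes, no UMI of the blood cell gene Ptprc, and at least 150 Cxcl12 UMIs per 10000. This gate held 5664 cells of the control library and 1954 cells of the naive library, 7618 of the 57968 cells deposited for the 5 libraries of the series. Every mouse carried Lepr-cre and R26R-tdTomato, so that cells with a history of leptin receptor promoter activity are marked by a red fluorescent protein. Femur marrow was dissociated with enzymes, and the red cells were sorted and captured on a BD Rhapsody HT Xpress device. Control mice were uninjured and 15 weeks old. Naive mice were also 15 weeks old and had undergone 1 bone marrow ablation surgery at 13 weeks of age, 2 weeks earlier. The labels give no number of animals and no batch for either library.

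Reticular stromal cells of the marrow, often called CAR cells for their abundant Cxcl12, hold blood stem cells and early lymphoid cells near them through Cxcl12 and stem cell factor (Kitl). Most of them carry the leptin receptor, and the population contains precursors of both bone-forming cells and marrow fat cells. Marrow ablation empties the cavity of the bone mechanically, after which new bone and new marrow stroma form inside it.

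Cxcl12, Ptprc and the share of mitochondrial UMIs chose the cells: the members were selected on these values, which are given only as a description. The gate took 61.2% of the control cells that passed the first 3 filters (95% exact binomial interval 60.2 to 62.2%) and 37.3% of the naive cells (36.0 to 38.6%). Within the gate, the median was 384 Cxcl12 UMIs per 10000 in control cells and 283 in naive cells, so the naive cells stood closer to the lower limit of the gate. Just outside it, at 100 to 150 Cxcl12 UMIs per 10000, stood 245 control and 311 naive cells, and just inside, at 150 to 200, stood 250 and 340. Across that limit Lepr went from 2115 to 2647 CPM (counts per 1000000 UMIs of the summed cells) in control and from 1674 to 1953 CPM in naive. The bone-lineage gene Alpl went from 463 to 599.8 CPM in control and from 676 to 600.1 CPM in naive. The label of reticular cells was described with Lepr, which the rule did not use. The sort had used a history of Lepr promoter activity, so Lepr is not an independent check. Cells just outside the gate also carried it, as given above. At least 1 Lepr UMI was present in 99.9% of the gated control cells and 98.2% of the gated naive cells. With each cell thinned to 3000 UMIs, the shares were 99.7% and 97.0%, against 33.4% and 14.2% of the cells with a Ptprc UMI.

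Each group was a single library, so no difference below has a replicate check and no test between groups was made. The values compare these libraries, not the conditions, and the intervals cover counting error only. The gated cells held 54165744 UMIs in control and 19113528 in naive, with a median of 9002 and 8721 UMIs a cell. A gene was counted as higher or lower in naive when it reached 5 CPM in either library, its ratio was at least 2 and the exact 95% counting interval of the ratio left out 1. Of 10431 genes that reached 5 CPM, 277 (2.66%) were higher and 193 (1.85%) were lower, with a median log2 ratio of 0.12. With scaling by trimmed means, which shifted the log2 ratios by -0.13, the counts were 218 higher and 240 lower. Shares of cells were taken after each cell was thinned at random to 3000 UMIs, which 5577 control and 1741 naive cells reached. The cells with a Ptprc UMI, thinned to the same depth, serve as the background that free RNA, doublets and expression in blood cells together give. Red blood cell RNA differed between the gates: the 8 erythroid markers summed to 3614 CPM in control and 1267 CPM in naive, and 7 of 7 measured were lower. Its part in the results was not tested. With the cells carrying blood or endothelial marker RNA left out, 277 genes were higher and 183 lower, of which 268 and 176 were shared. This kept 5461 control and 1927 naive cells. Before thinning, the globin gene Hba-a1 was found in 82.7% of control and 56.6% of naive gated cells, so this step cannot remove all such RNA.

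**Figure D1:**
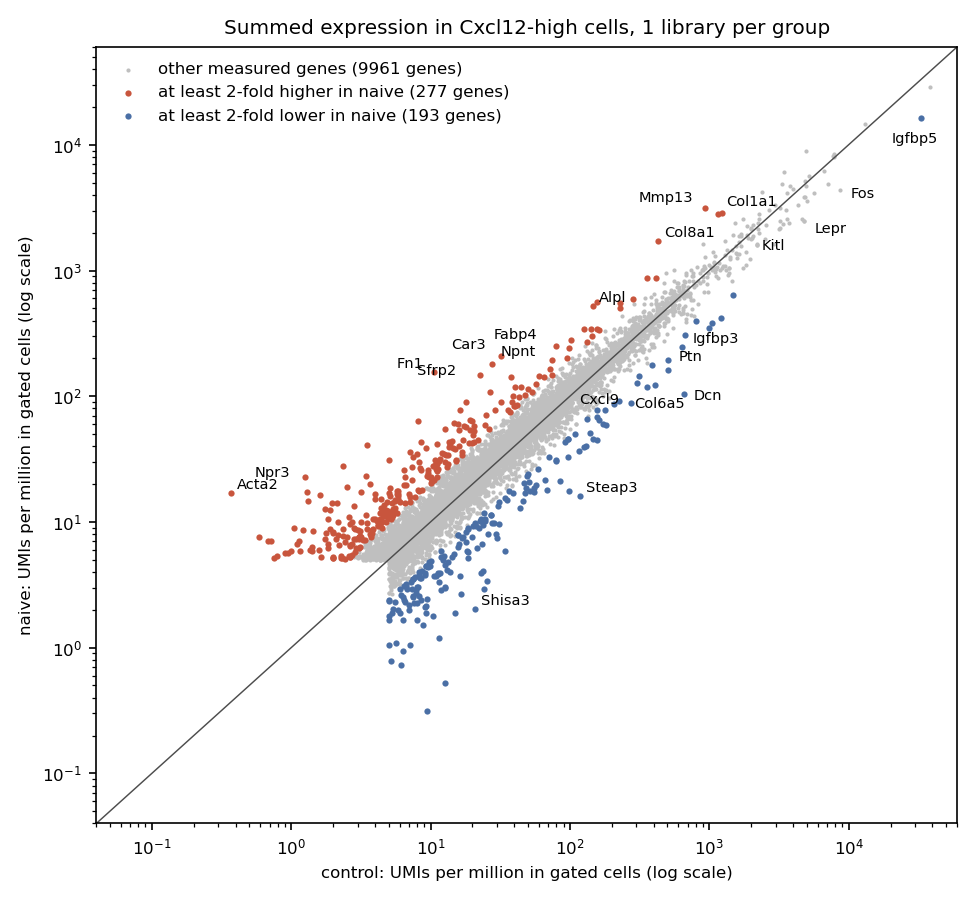
Summed level of each measured gene in the gated cells of the control library (horizontal) and the naive library (vertical), in CPM on log axes, with 1 library per group. Red marks the 277 genes at least 2-fold higher in naive and blue the 193 at least 2-fold lower, and the line marks equal levels. Mmp13, Col8a1, Alpl and Col1a1 stand above the line, and Dcn, Igfbp3, Ptn and Igfbp5 below it.

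Calls among the bone-lineage genes went both ways: Mmp13, Alpl, Col1a1, Sp7, Limch1, Kcnk2 and Tmem119 were higher in naive cells, and Phex and Dmp1 were lower. Of 25 genes in the osteoblast list, 19 reached 5 CPM. Of these, 7 were higher and 2 lower, with a median log2 ratio of 0.62 against 0.12 for all genes. Their summed level was 15098 CPM in control and 21899.5 CPM in naive.

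Mmp13, the collagenase of bone and cartilage remodelling, is a classical target of the osteoblast factor Runx2 and of AP-1. The 250 bases before its start in the RefSeq table of build GRCm38.p6 (chr9:7272264-7272513, plus strand) are shown because Mmp13 was both at least 2-fold higher in naive and carried by most cells of either library. Col1a1, Tnc and Col5a2 met the same description, and their windows were not looked at. The capitals mark 1 AACCACA, a RUNX motif whose first base stands at position -119 from the start, and 1 TGACTCA, an AP-1 motif at position -35.
Mmp13: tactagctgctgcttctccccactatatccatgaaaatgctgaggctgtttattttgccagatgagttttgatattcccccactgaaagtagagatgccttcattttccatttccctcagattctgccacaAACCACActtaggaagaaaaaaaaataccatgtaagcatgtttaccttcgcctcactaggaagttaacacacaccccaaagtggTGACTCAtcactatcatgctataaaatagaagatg
Both strands were searched for these motifs and for the cyclic AMP element TGACGTCA; the marked matches do not overlap. Over all 32851 windows of 300 bases in that table, 5.27% held the RUNX motif, 5.202% held the AP-1 motif and 1.79% held the cyclic AMP element. The windows of Alpl, Col8a1, Npnt, Sfrp2 and Fos held none of the 3. Among these genes and Mmp13, only the window of Mmp13 held a match.

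Mmp13 stood at 930.5 CPM in control and 3143 CPM in naive, 3.38-fold higher (3.34 to 3.42). It was found in 56.7% of control cells and 78.2% of naive cells, against 15.6% and 16.6% of the Ptprc-positive cells. Alpl, the membrane phosphatase that osteoblasts use to mineralise matrix, stood at 147 CPM in control and 519 CPM in naive, 3.54-fold higher (3.43 to 3.64). Its share of cells was 16.1% and 49.6%, against a background of 5.04% and 6.88%. Both genes were thus present in more naive cells, by more than the background differed. Limch1, an actin-binding regulator of non-muscle myosin that stands in the osteoblast list, had 229 CPM and 557 CPM, 2.43-fold higher (2.36 to 2.49), in 25.3% and 52.5% of cells. In the lowest of the 3 Cxcl12 ranges described below, Alpl and Limch1 had log2 ratios of 0.46 and 0.20.

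Col1a1, the main collagen chain of bone, had 1153 CPM in control and 2816 CPM in naive, 2.44-fold higher (2.41 to 2.47), and 75.8% and 92.2% of cells carried it. Sp7, the transcription factor that commits cells to the osteoblast lineage, had 20.4 CPM and 57.5 CPM, 2.82-fold higher (2.59 to 3.07), in 4.82% and 13.3% of cells. Runx2, which acts upstream of Sp7, had 474 CPM and 431 CPM, a log2 ratio of -0.14. Sparc, a collagen-binding matrix protein, had 3422 CPM and 6071 CPM, a log2 ratio of 0.83. Spp1, which encodes osteopontin and stands in the niche list, had 102.1 CPM in control and 279.6 CPM in naive, 2.74-fold higher (2.64 to 2.84), in 13.3% and 32.5% of cells. About 10% of the Ptprc-positive cells also carried Spp1 (9.32% in control and 10.4% in naive).

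Other bone genes had lower levels in naive. Ibsp, bone sialoprotein, which did not reach 2-fold, had 4617 CPM in control and 2550.2 CPM in naive, 1.81-fold lower (1.79 to 1.83), and its share of cells was 91.0% and 69.7%. Phex, the osteocyte endopeptidase of phosphate balance, had 313 CPM and 146 CPM, 2.15-fold lower (2.06 to 2.24), in 40.2% and 21.9% of cells. Its log2 ratios in the 3 Cxcl12 ranges described below were -0.76, -0.96 and -0.60, each within 2-fold. Dmp1, an osteocyte matrix protein, had 5.83 CPM and 1.99 CPM. Bglap, Bglap2, Mepe, Ifitm5, Smpd3 and Phospho1, all genes of mature osteoblasts or osteocytes, stayed under 5 CPM in both libraries.

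Many genes of a provisional, wound-type matrix were higher. Of 30 genes in the repair matrix list, 29 were measured, 10 were higher and 2 lower, with a median log2 ratio of 0.57 and a summed level of 14325 CPM in control and 20472 CPM in naive. Fn1, fibronectin, had 10.6 CPM in control and 155 CPM in naive, 14.6-fold higher (13.4 to 16.03), and was found in 2.26% and 22.98% of cells. Fn1 was also present in 12.4% and 14.8% of the Ptprc-positive cells, so its control share lies under that background. Col8a1, a short-chain collagen of remodelling tissue, had 427 CPM and 1706 CPM, 3.99-fold higher (3.92 to 4.06), in 35.7% and 84.1% of cells against a background of 7.18% and 10.6%. Olfml3, a secreted olfactomedin-domain protein outside the lists, had 156 CPM and 567 CPM, 3.62-fold higher (3.52 to 3.73), in 18.8% and 56.2% of cells. Both Col8a1 and Olfml3 were carried by a minority of control cells and a majority of naive cells.

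Col3a1, the fibrillar collagen of early scar, had 356 CPM in control and 875 CPM in naive, 2.46-fold higher (2.41 to 2.51). Tnc, tenascin C, had 1233 CPM and 2874 CPM, 2.33-fold higher (2.31 to 2.36), and was carried by 73.6% and 91.7% of cells. Col5a2, Vcan and Postn were 2.08-fold, 2.85-fold and 2.39-fold higher. With trimmed-mean scaling Col5a2 had a log2 ratio of 0.93, and in the lowest of the 3 Cxcl12 ranges described below Postn had one of -0.29 against 1.5004 and 2.04 in the others. Col6a1 and Bgn stayed within 2-fold (log2 ratios of 0.57 and 0.19). Acta2, smooth muscle actin, was nearly absent in control, at 0.369 CPM, and stood at 16.8 CPM in naive. Only 2.87% of naive cells carried it, under the 4.28% of the Ptprc-positive naive cells, and 10 cells held 52.2% of its UMIs. The summed level of the 8 mural cell markers, Acta2 among them, was 771 CPM in control and 586 CPM in naive. Rgs4 (386 CPM and 176 CPM) and Notch3 (285 CPM and 319 CPM) made up most of that sum. Rgs4 was carried by 35.0% and Notch3 by 52.2% of gated control cells, so the sum does not measure mural cell RNA alone. The part of mural cell RNA in Acta2 was not tested.

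Of the 12 basement membrane genes, all measured, 4 were higher and none was lower. Hspg2, perlecan, was 2.18-fold higher, and Lama2, a laminin chain, 2.57-fold higher. Col18a1 had a log2 ratio of 1.34. Col15a1 was 11.1-fold higher, from 1.33 CPM to 14.8 CPM, with 64.2% of its naive UMIs in 10 cells. Col4a1, a core collagen of basement membranes, stood at 1056 CPM and 1391 CPM, a log2 ratio of 0.40. Endothelial marker RNA was also higher beside these genes: the 10 markers, of which 3 reached 5 CPM, summed to 27.0 CPM in control and 42.7 CPM in naive, and to 77.5 CPM and 176 CPM in Ptprc-positive cells. Its part in the basement membrane genes was not tested.

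Both genes of the list that were lower, Dcn and Lum, encode small proteoglycans. Dcn, decorin, which binds collagen fibrils and TGF-beta, stood at 654 CPM in control and 104 CPM in naive, 6.26-fold lower (5.99 to 6.56). Its share was 69.3% of control cells and 18.0% of naive cells. In the Ptprc-positive cells the Dcn share was also lower in naive, 1.98% against 13.3%. Lum, a related proteoglycan, had 68.4 CPM and 18.0 CPM, and Col6a5, a collagen VI chain outside the list, had 407 CPM and 123 CPM, 3.32-fold lower (3.18 to 3.46).

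**Figure D2:**
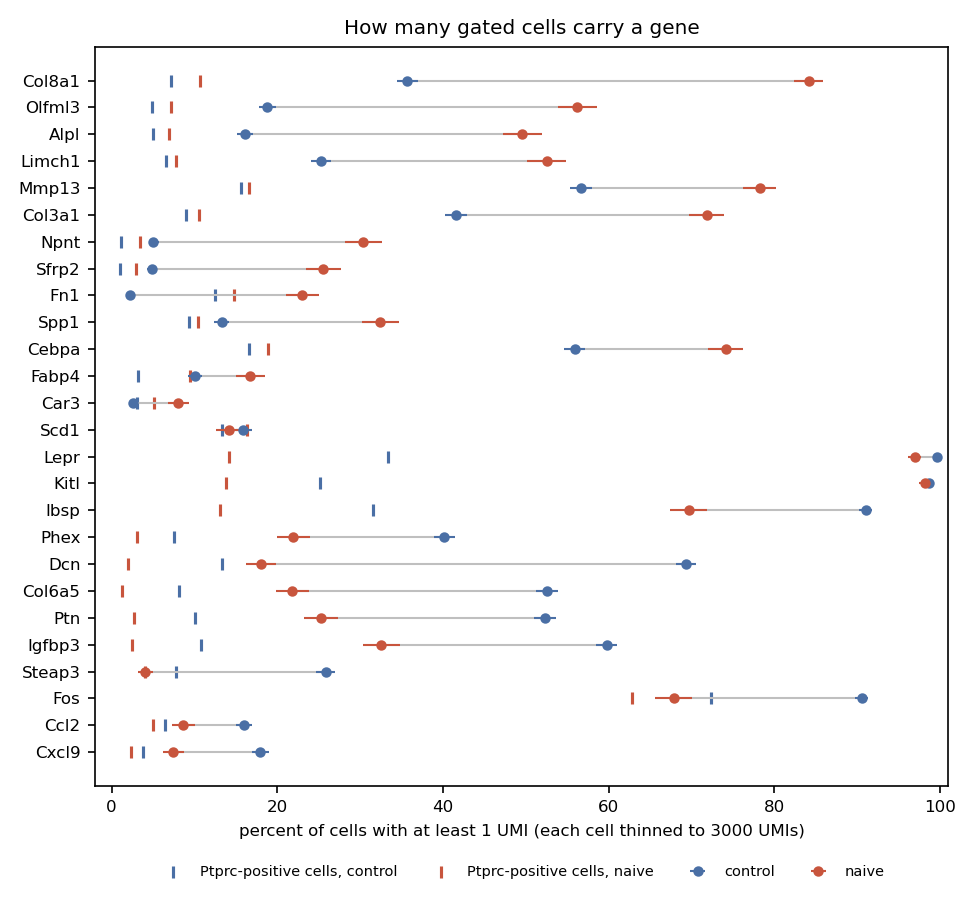
Percent of gated cells with at least 1 UMI of each gene after every cell was thinned to 3000 UMIs, in control (blue) and naive (red), with exact 95% binomial intervals that cover counting error only. Ticks give the same share in Ptprc-positive cells. Col8a1 was carried by 35.7% of control and 84.1% of naive cells, and Dcn by 69.3% and 18.0%.

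The bone morphogenetic protein and TGF-beta list held 6 higher genes and none lower among 25 measured of 28, with a median log2 ratio of 0.39. Nog, noggin, which binds and blocks BMPs, had 6.42 CPM in control and 19.5 CPM in naive, 3.04-fold higher, but in the lowest Cxcl12 range its log2 ratio was -0.31, against 2.78 and 2.28 in the others. Id1 and Smad6, standard targets of BMP signalling, were 2.12-fold and 2.18-fold higher. In the 3 Cxcl12 ranges Id1 had log2 ratios of 0.55, 1.10 and 0.67, and Smad6 did not stay 2-fold apart under every alternative setting. Inhba, an activin subunit, had 9.54 CPM and 24.5 CPM, and Bmp3 a log2 ratio of 1.38, while Bmp4 (-0.06) and Bmp6 (-0.38) were within 2-fold. Ltbp2, a fibrillin-associated protein, stood at 289 CPM and 538 CPM, a log2 ratio of 0.89.

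In the Wnt list, 15 of 24 genes were measured, of which 3 were higher and 1 lower. Sfrp2, a secreted Wnt modulator, had 22.6 CPM in control and 147 CPM in naive, 6.49-fold higher (6.07 to 6.95), and was found in 4.88% and 25.6% of cells. Wif1, a secreted Wnt inhibitor, was 2.12-fold higher (2.03 to 2.21), in 7.73% and 19.2% of cells. In the lowest Cxcl12 range its log2 ratio was -0.49, against 1.60 and 2.16 in the others, and with trimmed-mean scaling over the whole gate it was 0.96. Wnt5a was 2.66-fold higher and stood at 28.6 CPM in naive. The transcription factor Tcf7 was lower, with a log2 ratio of -1.34, and Rspo3, a Wnt enhancer, had a log2 ratio of 0.91. The pathway readouts Axin2, Lef1 and Notum did not reach 5 CPM in either library.

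The 15 genes with the highest naive to control ratio, among those with at least 20 CPM and at least 2 times the level of Ptprc-positive cells, were led by Npr3, Stc1 and Col8a2. Npr3, the clearance receptor of natriuretic peptides, had 1.26 CPM and 22.9 CPM, 18.3-fold higher (14.1 to 23.9), in 0.430% and 3.91% of cells. Stc1, the secreted glycoprotein stanniocalcin, was 11.9-fold higher (9.82 to 14.6) in 0.538% and 5.46% of cells. Npnt, nephronectin, an integrin ligand of the bone and kidney matrix, had the widest reach of the 15. It stood at 27.6 CPM and 181 CPM, 6.55-fold higher (6.16 to 6.96), in 5.06% of control and 30.4% of naive cells against a background of 1.16% and 3.44%. Ecrg4, Rgs7bp, Tspan18, Cldn10, Adamts12, Fgf13, Rbp4, Ak5, Olfm2 and Bcat1 were 4.21-fold to 7.85-fold higher, each in under 20% of naive cells.

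Fabp4, Car3, Plin1, Cfd and Cd36 were higher in naive with much of their RNA in a few cells. In the adipocyte and lipid list, 16 of 25 genes were measured, 6 were higher and none was lower, yet the summed level of the list was 6999 CPM in control and 6984 CPM in naive. Lpl, the lipoprotein lipase, made up most of that sum, with 6631 CPM in control and 6151 CPM in naive. The list's median log2 ratio was 0.60, and among the genes at least 2 times their level in Ptprc-positive cells it was 0.10 below that of all genes. Fabp4, a fatty acid carrier of fat cells, had 79.1 CPM and 253 CPM, 3.20-fold higher (3.07 to 3.34), in 10.04% and 16.7% of cells against a background of 3.24% and 9.49%. The 10 cells with the most Fabp4 held 17.5% of its UMIs in control and 28.6% in naive. Such shares cannot be compared directly, since 10 cells are a larger part of the smaller naive gate than of the control gate. Car3, a carbonic anhydrase of fat and muscle, had 31.9 CPM and 210.01 CPM, 6.59-fold higher (6.23 to 6.98), in 2.62% and 7.98% of cells. The 10 cells with the most Car3 held 40.5% of its UMIs in control and 43.6% in naive. The Car3 share of control cells lies under the background of 3.01%, and the naive share lies above its background of 5.11%.

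Plin1, the coat protein of fat droplets, had 0.591 CPM in control and 7.59 CPM in naive. In 10 cells stood 75% of its 32 control UMIs and 76.6% of its naive UMIs. Cfd, adipsin, had 1.29 CPM and 17.3 CPM, with 50% and 83.3% in 10 cells. Cd36, a fatty acid receptor, had 6.42 CPM and 25.9 CPM, with 49.1% and 46.3% in 10 cells. The 8 adipocyte markers, of which 2 reached 5 CPM, summed to 33.2 CPM and 223 CPM. Dgat1, a triglyceride synthesis enzyme and the last gene of the 6, had 21.7 CPM and 44.9 CPM. It was not concentrated in this way (11.2% of its naive UMIs in 10 cells) and was carried by 36.8% and 25.9% of the Ptprc-positive cells. In the 3 Cxcl12 ranges described below Dgat1 had log2 ratios of 0.81, 0.71 and 0.46, each within 2-fold. Among the 9 measured transcription factors of the fat lineage, none was 2-fold apart. Cebpa had 345 CPM and 609 CPM, a log2 ratio of 0.82, in 55.9% and 74.2% of cells, and Pparg had 129 CPM and 154 CPM.

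The niche factors and the identity genes of reticular cells stayed mostly within 2-fold, as did most measured genes. Of 16 niche factors, 1 was higher (Spp1) and 1 lower (Ptn), with a median log2 ratio of 0.08. That is 6.25% each way, against 2.66% higher and 1.85% lower over all measured genes. Kitl, stem cell factor, had 2545 CPM in control and 2295 CPM in naive, 0.902 times the control level (0.892 to 0.912). Il7 and Csf1, growth factors of lymphoid and macrophage precursors, had 176 CPM and 168 CPM, and 891 CPM and 1017 CPM. Ptn, pleiotrophin, a growth factor that sustains blood stem cells, had 508 CPM and 163 CPM, 3.11-fold lower (2.997 to 3.23), in 52.3% and 25.3% of cells.

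Of 20 reticular identity genes, none was called in either direction, and their median log2 ratio was 0.02. None is close to the shares over all measured genes, 2.66% higher and 1.85% lower. Lepr lay closest to the threshold, with 4806 CPM in control and 2479 CPM in naive, 1.94-fold lower (1.92 to 1.96). At 3000 UMIs a cell, the median cell held 14 Lepr UMIs in control and 7 in naive. Foxc1, a transcription factor that maintains these cells, had 654 CPM and 459.7 CPM, while Ebf1 and Ebf3, which do so too, had 1056 CPM and 1073 CPM, and 1257 CPM and 1086 CPM. Adipoq, which marks these cells among marrow stroma, had 3771 CPM and 4680.4 CPM. Aldh1a2, a retinoic acid synthesis enzyme outside that list, had 1484 CPM and 641 CPM, a log2 ratio of -1.21, and was carried by 92.6% and 65.1% of cells. Tmem176b, a membrane protein, had 2913 CPM and 1636 CPM, a log2 ratio of -0.83.

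Among the carriers of insulin-like growth factor, Igfbp5 and Igfbp3 were lower. Igfbp5 had 32863 CPM in control and 16404 CPM in naive, 2.003-fold lower, and the median cell held 89 and 42 of its UMIs per 3000. In the 3 Cxcl12 ranges its log2 ratios were -0.61, -0.87 and -0.62, so it was within 2-fold in each. Igfbp3 had 642 CPM and 247 CPM, 2.60-fold lower (2.52 to 2.68), in 59.8% and 32.6% of cells. Igfbp4 was higher in naive within 2-fold, at 4976 CPM and 8918 CPM. Igf1 itself had 680.4 CPM and 913 CPM.

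Signals to blood vessels were mixed, with 3 of 16 measured genes higher and 1 lower. Angpt2, the antagonist of the vascular receptor Tie2, had 126 CPM in control and 39.7 CPM in naive, in 27.4% and 11.3% of cells. Angpt4, another Tie2 ligand, had 73.9 CPM and 193 CPM, in 11.3% and 27.4% of cells. Its log2 ratio was 0.21 in the lowest Cxcl12 range, against 1.56 and 1.68 in the others. Hgf, hepatocyte growth factor, had 17.0 CPM and 44.7 CPM, and Vegfa stayed within 2-fold with a log2 ratio of 0.21. Hes1, a Notch target, had 506 CPM and 194 CPM, a log2 ratio of -1.38. In the list of leptin and gp130 signalling, Cntfr, a cytokine receptor subunit, had 16.5 CPM and 2.67 CPM and was the only one lower of 11 measured, while the shared receptor Il6st had a log2 ratio of 0.05.

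Steap3, an iron reductase best known from red cell precursors, was also lower, with 118 CPM in control and 16.1 CPM in naive, 7.33-fold lower (6.54 to 8.25). Its share of cells was 25.8% and 4.02%, against 7.76% and 4.07% of the Ptprc-positive cells, so the naive share was no higher than that background. Erythroid marker RNA was lower beside it, as given above, and its part in Steap3 was not tested. Shisa3 was 10.2-fold lower (7.39 to 14.4) and C1qtnf2 8.24-fold lower, each from a control level under 25 CPM. Sparcl1, Ces1g, Gpr50, Rarb, Akr1c13, Rgs16, Avpr1a, Des and Cntn1 were 3.39-fold to 5.87-fold lower. Rgs16, a regulator of G protein signalling, had 158 CPM and 44.8 CPM.

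**Figure D3:**
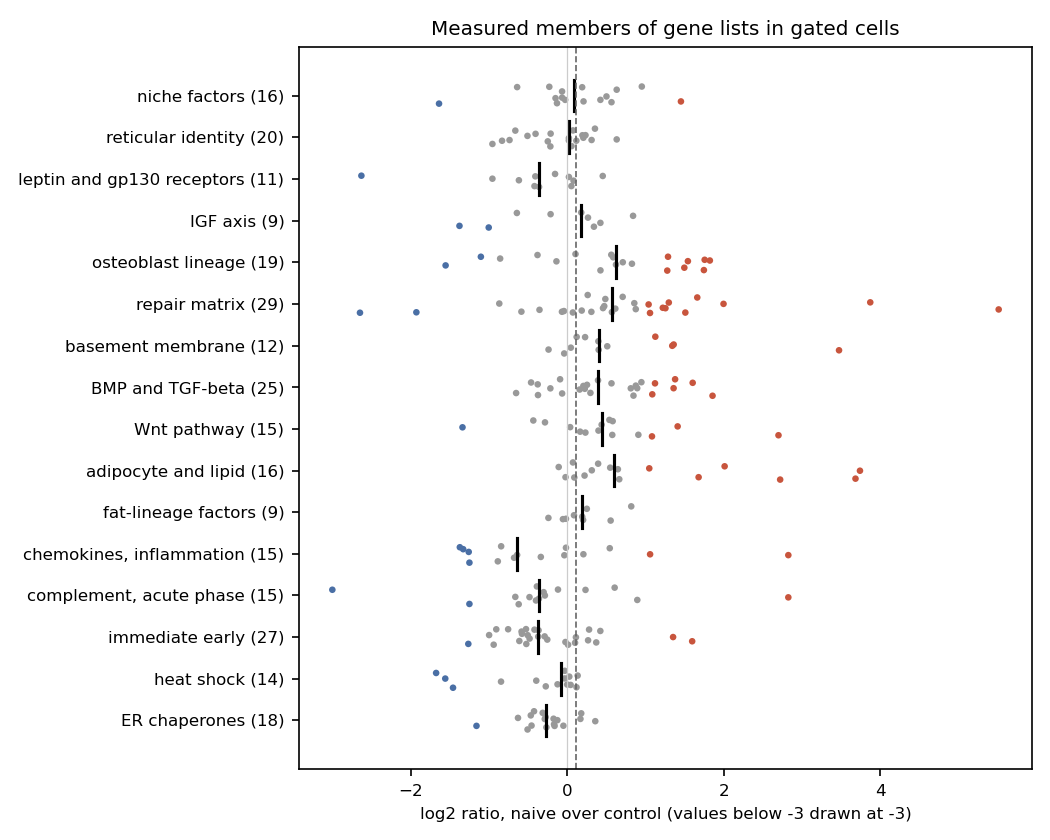
Log2 ratio of naive to control for the measured members of each gene list, 1 point per gene, with 1 library per group. Red points are at least 2-fold higher, blue points at least 2-fold lower, black bars are list medians and the dashed line is the median of all genes, 0.12. The osteoblast (0.62), repair matrix (0.57) and adipocyte (0.60) medians lie above that line and the chemokine median (-0.64) below it. Cfi, at -4.90, is drawn at the edge.

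Chemokine and inflammatory genes other than Cxcl12 were lower on balance: 4 of 15 measured were lower and 2 higher, with a median log2 ratio of -0.64 and summed levels of 4889 CPM in control and 3062 CPM in naive. Cxcl14, a chemokine abundant in stroma that stayed within 2-fold, made up most of that sum and of its difference, with 3714 CPM and 2384 CPM. Ccl2, which recruits monocytes, had 162 CPM and 64.4 CPM, 2.51-fold lower (2.37 to 2.67), in 15.99% and 8.62% of cells against a background of 6.43% and 5.01%. Ccl7, a related monocyte attractant, had 80.1 CPM and 31.0 CPM. Cxcl9, an interferon-inducible attractant of T cells, had 305 CPM and 127 CPM, 2.39-fold lower. In 10 cells stood 15.4% of its control UMIs and 48.2% of its naive UMIs, and 10 cells are a larger part of the naive gate. In Ptprc-positive cells Cxcl9 went the other way, with 40.0 CPM in control and 111 CPM in naive. The higher ones were Lif, a cytokine of the gp130 family, with a log2 ratio of 1.06, and the acute phase gene Saa3, at 2.82. No gene of the 15 in the NF-kappaB feedback list and none of 10 class I antigen presentation genes was 2-fold apart. Of 23 measured interferon-response genes, none was higher and 2 were lower. In the complement list Cfi, the protease that inactivates C3b, had 9.40 CPM in control and 0.314 CPM in naive. The summed level of the 12 myeloid markers was 261 CPM in control and 153 CPM in naive, so blood cell RNA was lower beside these genes, and its part in them was not tested.

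Several stress-responsive genes were lower, some of them also in the Ptprc-positive cells of the same libraries. Of 27 immediate-early genes, which respond within minutes to stimulation and to tissue dissociation, 2 were higher and 1 lower, with a median log2 ratio of -0.37. Fos had 8735 CPM in control and 4376 CPM in naive, a log2 ratio of -0.997 just under the threshold, and its median cell held 20 and 4 UMIs per 3000. In Ptprc-positive cells the log2 ratio of Fos was -0.61. Egr1, another immediate-early transcription factor, had a log2 ratio of -0.94 in gated cells and -1.30 in Ptprc-positive cells. Atf3 was lower in gated cells (-1.26) and not in Ptprc-positive cells (0.39), whereas Fosl1, an AP-1 subunit of growing cells, and Nr4a2 were higher (1.5965 and 1.35). In the 3 Cxcl12 ranges Nr4a2 had log2 ratios of 0.68, 0.63 and -0.88.

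Of 14 measured heat shock genes, 3 were lower and none higher. Hspa1a, the inducible form of Hsp70, had 96.9 CPM and 32.9 CPM, 2.94-fold lower, in 9.32% and 3.96% of cells, and its log2 ratio in Ptprc-positive cells was -0.07. Its near-identical neighbour Hspa1b, which can share reads with it, had 140.03 CPM and 51.0 CPM. Hspb1 was lower in both kinds of cell, with log2 ratios of -1.67 and -1.62. Of 18 measured chaperones of the endoplasmic reticulum, 1 was lower, Sdf2l1, at 58.6 CPM and 26.3 CPM, and Hspa5, the main Hsp70 of that compartment, had 2523 CPM and 1776 CPM.

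Growth and metabolism lists showed few calls, as did all measured genes, of which 2.66% were higher and 1.85% lower. None of 81 measured ribosomal protein genes and none of 89 measured nuclear genes of oxidative phosphorylation was 2-fold apart, with median log2 ratios of 0.15 and 0.10. Of 15 p53 and arrest genes none was called, and Cdkn1a, the p21 cell cycle inhibitor, had 349 CPM and 339 CPM. Few division genes reached 5 CPM, with 10 of 22 measured. Mki67, a marker of dividing cells, was found in 1.26% of control and 1.21% of naive cells, and its level, 12.7 CPM and 4.55 CPM, rested on few cells, with 66.1% of the control UMIs in 10 of them. Without the cells carrying blood or endothelial marker RNA its log2 ratio was 0.16, and in the highest Cxcl12 range it was 0.13.

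The osteoblast and repair matrix lists were higher over much of the distribution of single cells. At 3000 UMIs a cell, the osteoblast list gave 24, 42 and 66 UMIs at the 10th, 50th and 90th percentile of control cells and 35, 61 and 100 in naive cells. The control 90th percentile was exceeded by 41.9% of naive cells (39.6 to 44.3%) and 9.81% of control cells. The repair matrix list gave 25, 41 and 60 UMIs in control and 37, 59 and 87 in naive, and 46.3% of naive cells (43.9 to 48.7%) exceeded the control 90th percentile. For both lists the 10th percentile was higher in naive as well as the 90th.

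The adipocyte list, whose UMIs are mostly those of Lpl, gave 7, 18 and 37 UMIs in control and 4, 16 and 41 in naive. Only 12.6% of naive cells exceeded its control 90th percentile, but the 99th percentile was 61 UMIs in control and 97.8 in naive. The niche list was nearly level, with medians of 36 and 35 UMIs. The chemokine list, whose UMIs are mostly those of Cxcl14, lay below the control 10th percentile in 32.3% of naive cells, against 7.53% of control cells. The leptin and gp130 list, which holds Lepr, did so in 43.8% of naive cells, and the immediate-early list in 25.5%.

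**Figure D4:**
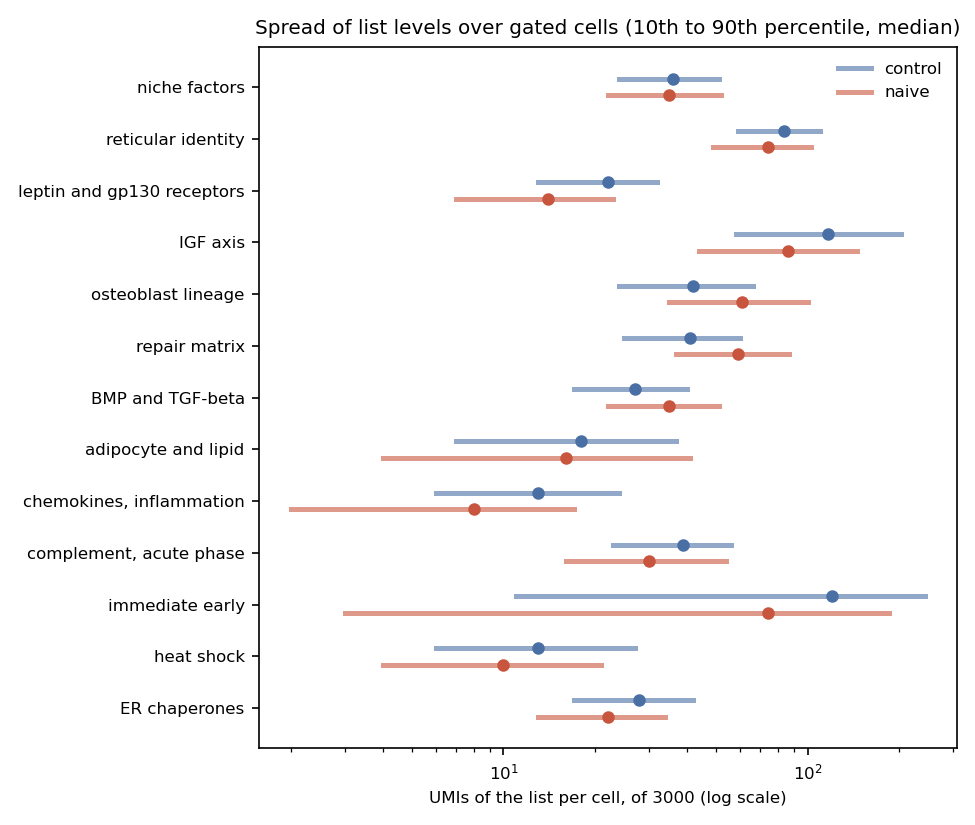
UMIs per cell from each gene list after thinning to 3000 UMIs a cell, on a log axis, in control (blue) and naive (red), with points at the median and bars from the 10th to the 90th percentile of cells. The osteoblast bars run from 24 to 66 in control and 35 to 100 in naive, while the niche factor medians are 36 and 35.

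Relative cell-to-cell variation was measured as the squared coefficient of variation left after the Poisson part was taken off. The 4320 genes used had a thinned mean of at least 0.1 UMI and a value above 0.05 in both libraries. Of these, 980 (22.7%) varied at least 1.5-fold more in naive cells and 690 (16%) at least 1.5-fold less, with a median ratio of 1.06. With cells thinned to 5000 UMIs, 422 of the 980 and 271 of the 690 were counted again. Among the 41 of the 4320 that were higher in naive, 22 varied less and 1 more. Among the 38 that were lower, 32 varied more and none less. A mean and a relative variation share the same counts, so these numbers are a description. For Alpl the value was 9.54 in control and 1.87 in naive, for Olfml3 5.39 and 1.30, for Col8a1 4.05 and 1.15, for Limch1 5.75 and 1.68, and for Mmp13 4.09 and 2.11. In these genes the naive cells differed less among themselves relative to the mean.

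Scd1, a fatty acid desaturase, did the opposite. Its level was similar, at 70.0 CPM in control and 87.0 CPM in naive, but its variation was 4.95 and 42.6. In 10 cells stood 4.93% and 29.9% of its UMIs, and 10 cells are a larger part of the naive gate. For Aldh1a2 the variation was 0.263 and 0.872. The gene with the largest gain by the naming rule was Dhx40, an RNA helicase, at 1.38 and 43.9, with 10.7% of its naive UMIs in 10 cells and 5.46% in a single one, so that value rests largely on 1 cell. The genes with the greatest losses by that rule, led by Dnm2, Psmc5 and Ubxn1, had thinned means near the minimum of 0.1 UMI a cell and rest on few UMIs.

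Across naive cells, UMIs of the osteoblast and repair matrix lists were correlated with Pearson's r of 0.52, against 0.34 in control, over 1741 and 5577 cells. The osteoblast and adipocyte lists had an r of -0.11 in both, while by rank Spearman's rho was -0.06 in control and -0.23 in naive. Cells of 1 library share depth, free RNA and a fixed total of 3000 UMIs, so these values are a description. In the 162 naive cells with over 100 osteoblast-list UMIs, which chose them, 48.8% carried Fn1 and 52.5% carried Npnt, neither of which is in that list. In the other 1579 cells the shares were 20.3% and 28.1%. Fabp4 was carried by 10.5% of the 162 and 17.4% of the others, and mean Cxcl12 was 91.0 and 88.5 UMIs per 3000. Control cells split in the same directions. Of the 547 control cells with over 66 osteoblast-list UMIs, 6.58% carried Fn1, 12.4% Npnt and 4.20% Fabp4. In the other 5030 control cells the shares were 1.79%, 4.25% and 10.7%. The 162 are a range of a score and not a type: 44 cells lay within 2 UMIs of its limit.

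Because naive cells held less Cxcl12 inside the gate, the comparison was repeated in cells of matched Cxcl12 range. At 150 to 300 Cxcl12 UMIs per 10000 stood 1151 control and 1120 naive cells, at 300 to 450 stood 3172 and 625, and above 450 stood 1341 and 209. Of the 277 genes higher in the whole gate, 267, 275 and 260 kept their direction in the 3 ranges, and 147, 214 and 198 were at least 2-fold higher. Of the 193 lower genes, 193, 193 and 185 kept their direction, and 155, 166 and 144 were at least 2-fold lower. Mmp13 had log2 ratios of 1.09, 1.66 and 1.42 in the 3 ranges from low to high Cxcl12, and Col8a1 had 1.32, 2.03 and 2.24. Alpl had 0.46, 2.21 and 3.15, and Spp1 had 0.25, 1.43 and 2.60. These 2 genes were thus within 2-fold in the range of lowest Cxcl12 and more than 4-fold apart in the highest. Other genes were also within 2-fold in the lowest range and not in the other ranges. Limch1 had 0.20, 1.46 and 1.85, Kcnk2 had 0.23, 1.75 and 1.73, Angpt4 had 0.21, 1.56 and 1.68, and Olfml3 had 0.80, 2.13 and 2.74. Dcn had -2.62, -2.39 and -3.07, Lepr -0.64, -0.83 and -0.77, and Cxcl9 -1.76, -1.16 and -0.17.

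**Figure D5:**
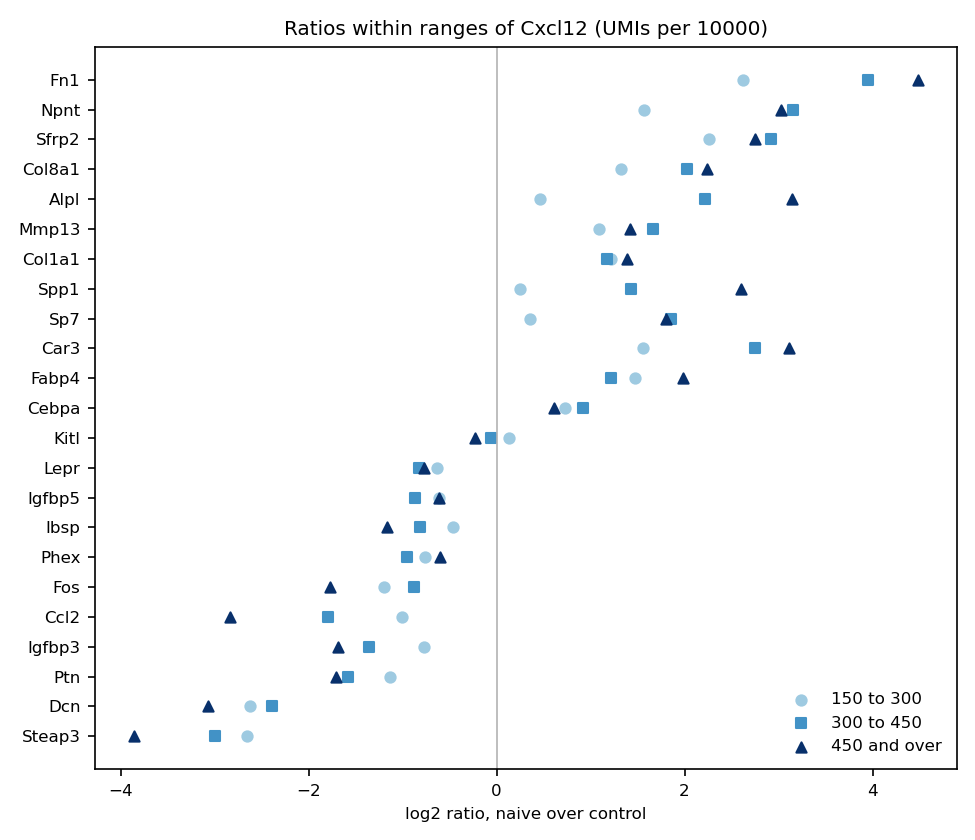
Log2 ratio of naive to control for 23 genes in gated cells of 3 Cxcl12 ranges (150 to 300, 300 to 450 and at least 450 UMIs per 10000), with 1 library per group. Col8a1 lies above 1 and Dcn below -2 in each range, while Alpl goes from 0.46 in the lowest range to 3.15 in the highest.

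The same gate took 1906 cells of the exhausted library (15 weeks, ablated at 9 and 13 weeks), 5322 of the aged library (18 months) and 11213 of the aged library taken 1 week after surgery. Col8a1 had 1240.0 CPM, 611 CPM and 1243 CPM there, between the control and the naive level. Dcn had 210.0 CPM, 829 CPM and 520.0 CPM, and Alpl 323 CPM, 109 CPM and 180 CPM. Among the 5 libraries the naive cells thus had the highest Col8a1 and Alpl and the lowest Dcn level, with 1 library in each group. Not every gene followed this order. Col1a1 had 3279 CPM in exhausted, 799 CPM in aged and 3744 CPM in aged cells after surgery, against 2816 CPM in naive. Col3a1 had 1064 CPM, 193 CPM and 1217 CPM there, against 875 CPM in naive.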

How the data were processed

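Counts of UMIs per gene and cell, 1 matrix per library, were deposited by the authors. Seurat 5.1 and build GRCm39 are named per the submitters' processing notes, the aligner, counter and cell caller being not given in the sources used here. The control matrix holds 11204 cells and 95397522 UMIs and the naive matrix 7480 cells and 58895655 UMIs. After the filters on genes, UMIs and mitochondrial share, 9253 and 5242 cells were left. No doublet caller was run, and the deepest 5% of cells were left out as an alternative. The control and naive matrices share 1 cell barcode.

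UMIs were summed over the gated cells of a library and divided by their total to give CPM, computed here. A ratio has an exact conditional binomial 95% interval, and shares of cells have Clopper-Pearson intervals; both cover counting error only, and cells of a library are not replicates. A level of 0 was set to a floor of 3 counts. Each cell with at least 3000 UMIs was thinned once with a fixed seed. The procedure was tested on simulated data. Scaling by TMM used edgeR 4.0.16. Python 3.11.15, numpy 2.4.6, scipy 1.17.1, pandas 2.3.3, matplotlib 3.10.9 and R 4.3.3 were used.

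The gate, its members and the gene lists were chosen with earlier results of these data known. Named were the 15 genes with the highest and the 15 with the lowest ratio among those reaching 20 CPM in either library and at least 2 times the level of Ptprc-positive cells, a fixed set of single genes, the list members with the largest differences, and the genes whose variation differed most. Mmp13, Col8a1, Limch1, Olfml3, Dmp1, Col5a2, Vcan, Acta2, Col15a1, Hspg2, Smad6, Nog, Id1, Ltbp2, Angpt4, Hspa1a, Hspa1b, Nr4a2, Wnt5a, Rspo3, Cd36, Cfd, Dgat1, Cntfr, Aldh1a2, Tmem176b and any other gene named outside that rule were singled out after their values were seen. Promoters came from a RefSeq table of GRCm38.p6, matched by symbol.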

Additional observations from a re-analysis of the deposited data

Results flagged for a closer look

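Among the named genes, 2 were at least 2-fold apart after surgery in opposite directions in young and in aged cells of the same gate. Others differed in sign without reaching 2-fold in the aged pair. Cxcl9 had a log2 ratio of -1.26 between naive and control and of 1.91 between the aged library after surgery and the aged library. The young value of Cxcl9 was -0.17 in the highest Cxcl12 range, and 10 cells held 48.2% of its naive UMIs. In the Ptprc-positive cells of the young pair it was 1.48. Mki67 had a log2 ratio of -1.48 in the young and 2.04 in the aged pair. Its young value was 0.16 without the cells carrying blood or endothelial marker RNA and 0.13 in the highest Cxcl12 range, and 10 cells held 66.1% of its control UMIs, so its direction in the young pair is not settled. Each value rests on 1 library a group, and the difference between the pairs was not tested. The pairs also differ in the time after surgery, 2 weeks in the young and 1 week in the aged mice.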

How the results depend on the processing

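No paired analysis was possible because each group is 1 library, and for the same reason no replicate could be left out. The share of filtered cells in the gate, 61.2% in control, was 63.9% with a Cxcl12 minimum of 100, 54.6% with 250, 64.4% with 3000 UMIs, 64.8% under 10% mitochondrial UMIs, 59.0% without cells carrying blood or endothelial marker RNA and 58.1% without the deepest 5% of cells. In naive, 37.3%, it was 43.2% with a Cxcl12 minimum of 100, 23.998% with 250, 43.6% under 10% mitochondrial UMIs and 35.4% without the deepest 5%. Genes higher and lower in naive, 277 and 193, numbered 126 and 91 at 20 CPM, 985 and 672 with no filter, 859 and 480 at a fold of 1.5, and 103 and 69 at a fold of 3. Among the 2699 genes at least 2 times their level in Ptprc-positive cells, a rule chosen after seeing the data, 167 were higher. Genes varying more, 980, numbered 1039 at 2000 UMIs (451 of them shared), 1016 at 5000 UMIs (422 shared) and 389 with a thinned mean of at least 0.3. Genes varying less, 690, numbered 339 at 2000 UMIs (118 of them shared), 1142 at 5000 UMIs (271 shared) and 121 with a mean of at least 0.3. Single genes of both counts thus depend on the depth. List medians, less the median of all genes, changed sign for adipocyte and lipid genes under the Ptprc-level rule (-0.10), for imprinted growth genes with no filter (0.16), and for cell division genes with Cxcl12 100 (0.17), without marker-carrying cells (0.12), without the deepest 5% (0.0238) and with cells weighted equally (0.0868). Without the marker-carrying cells Mki67 had 0.16 and Car2 0.0292. Of 98 named genes called in either direction, 84 stayed at least 2-fold apart in each of 11 alternatives. Of the 3 Cxcl12 ranges, the alternatives hold only 300 to 450. At 150 to 300, some genes counted in the 84 were within 2-fold: Alpl (0.46), Limch1 (0.20), Kcnk2 (0.23), Angpt4 (0.21), Comp (0.34) and Nog (-0.31) among them. Col5a2 had a log2 ratio of 0.93, Wif1 0.96 and Id1 0.96 with TMM scaling. In the Cxcl12 range 300 to 450 Dgat1 had 0.71, Igfbp5 -0.87, Phex -0.96 and Nr4a2 0.63. Lepr (-1.08) and Fos (-1.12) passed 2-fold with TMM scaling. Cfd had 1.65 with a Cxcl12 minimum of 250.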

Other observations

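Genes of synaptic adhesion and signalling, a list with no part in the comparison above, held 3 higher and no lower members among 9 measured of 18. Gria3, a glutamate receptor subunit, had 1.88 CPM in control and 12.4 CPM in naive, and Slitrk6, an adhesion protein of neurons, had 1.74 CPM and 12.7 CPM. Kcnq3, a potassium channel subunit, had 29.2 CPM and 77.5 CPM. Ptprd and Cbln1, the members of that list with the most UMIs, stayed within 2-fold, with log2 ratios of 0.10 and -0.25.

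The transcript of the tdTomato reporter was found in 22.2% of gated control cells and 19.7% of gated naive cells thinned to 3000 UMIs, and in 4.17% and 2.71% of the Ptprc-positive cells, although the cells had been sorted for its fluorescence.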
